A study of Mus musculus with 9 samples.

Results

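The genes of the mouse mitochondrial chromosome were followed in RENCA, a renal carcinoma cell line of the mouse, by sequencing of poly(A)-selected RNA. They are the 37 genes that the deposited table places on chromosome MT, of 54532 genes in all: 13 mRNAs, 2 rRNAs and 22 tRNAs. They were chosen by chromosome alone, with no use of their levels. Rescue cells (labelled genotype NDUFA4L2 +/+) had NDUFA4L2 re-expressed in the knockout line from a lentivirus, with puromycin selection. Knockout cells (NDUFA4L2 -/-) came from single-cell colonies after CRISPR editing with a single guide, and had been screened by qPCR. Empty-vector cells (WT) carried an empty vector. Each group had 3 libraries, of 13106531 to 26643877 counts. The sources used here do not give the number of knockout clones or say whether the controls were cloned, so effects of the gene, the clone, the virus and the selection cannot be told apart. The labels do not say that the libraries came from separate cultures, and p-values therefore reflect library-to-library spread alone, which may be technical.

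Mitochondrial DNA is transcribed from both strands into long precursors, which are cut mainly at the tRNAs that lie between the longer genes. The 13 mRNAs encode core subunits of the respiratory chain and ATP synthase, the 2 rRNAs form the mitochondrial ribosome, and the tRNAs serve its translation. Mature levels therefore depend on shared transcription and on the processing and stability of each RNA. Ndufa4l2, known from human clear cell renal carcinoma as a hypoxia-inducible mitochondrial protein, is a paralogue of the respiratory-chain subunit Ndufa4. Most mitochondrial mRNAs carry short poly(A) tails, whereas mitochondrial tRNAs end in CCA, so poly(A) selection does not sample the 3 kinds of RNA alike.

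Ndufa4l2 had 73, 48 and 35 counts in rescue libraries, 7, 8 and 6 in knockout libraries and 12, 6 and 16 in empty-vector libraries. Its counts thus separated rescue from the other groups but not knockout from empty vector. By edgeR's quasi-likelihood test, it was higher in rescue than in knockout by 2.57 ± 0.34 log2 units (SE, adjusted p = 2.1e-06), and knockout against empty vector gave -0.36 ± 0.42 (edgeR adjusted p = 0.47). Of 8 markers of renal epithelial carcinoma, 7 had at least 10 counts in every library, and Epcam had at most 1 count. The detected ones differed between the lines: Cdh1 (E-cadherin) had 1.95 to 2.79 CPM (TMM-scaled counts per library size) in rescue, 93.4 to 109 in knockout and 9.97 to 15.4 in empty vector. Pax8 had 151 to 177 CPM in rescue, 92.2 to 106 in knockout and 232 to 240 in empty vector, and the part of such differences in the results below was not tested. The 8 leukocyte markers summed to 2.39 to 2.78 CPM in rescue, 10.7 to 12.2 in knockout and 1.73 to 2.62 in empty vector, mostly from Csf1r and Lyz2, and their part in the results below was not tested. Ptprc had at most 2 counts, Tyrobp at most 1, and Cd3e, Adgre1 and Itgam had 0 in all libraries. Endothelial markers summed to at most 0.826 CPM and fibroblast markers to at most 0.252 CPM.

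The mitochondrial genes took a larger share of the knockout libraries than of the others. Their share of all gene counts was 7.93%, 7.30% and 5.79% in knockout libraries, against 3.04%, 2.16% and 3.17% in empty-vector libraries. The knockout libraries all lay above the empty-vector libraries, with means of 7.01% ± 1.10 and 2.79% ± 0.550 (SD, n = 3 each), a difference of 4.22 percentage points and a ratio of 2.51. In rescue libraries the share was 2.65%, 2.52% and 2.24%, a mean of 2.47% ± 0.212 (SD, n = 3), which is 0.352 times the knockout mean. Rescue and empty-vector libraries overlapped, with a difference of -0.320 percentage points. The exact two-sided permutation p was 0.1 for knockout against empty vector and for rescue against knockout (0.15 adjusted over 3 comparisons), the smallest that 3 against 3 libraries can give, and 0.4 for rescue against empty vector. Counting error was small beside this spread, since the widest Wilson 95% interval reached 0.014 percentage points to either side, and such intervals cover counting error only.

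**Figure D1:**
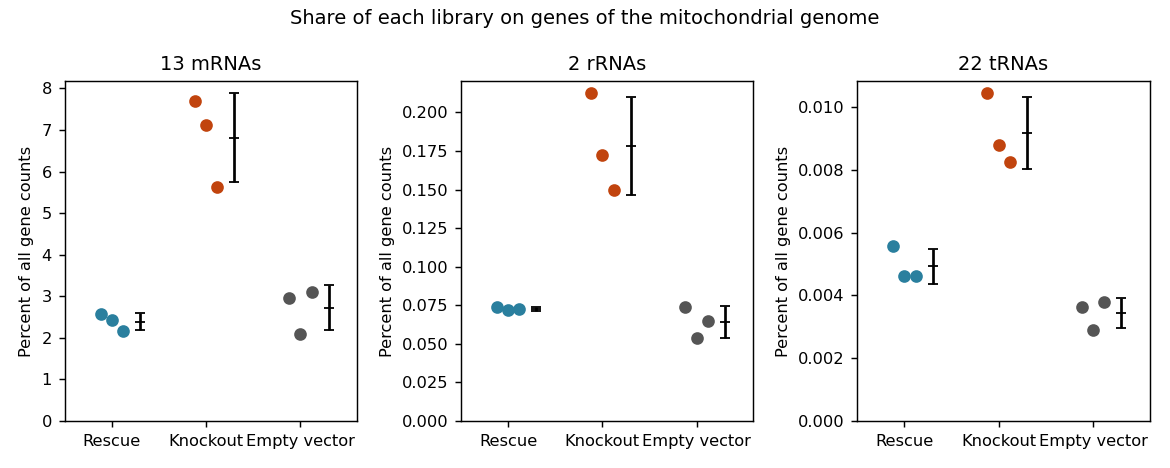
Percent of all gene counts on the 13 mRNAs, 2 rRNAs and 22 tRNAs of the mitochondrial chromosome, with a point for each of 3 rescue, 3 knockout and 3 empty-vector libraries; bars give mean ± SD (n = 3), and the axes differ between panels. All knockout points lie above all others in each panel.

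The mRNAs held nearly all of these counts. They made up 2.39% ± 0.211 of rescue, 6.82% ± 1.07 of knockout and 2.72% ± 0.541 of empty-vector counts (SD, n = 3 each). The 2 rRNAs held 0.0728% ± 0.00124, 0.178% ± 0.0316 and 0.0642% ± 0.0102 in rescue, knockout and empty vector, and the 22 tRNAs held 0.00492% ± 0.000554, 0.00917% ± 0.00115 and 0.00344% ± 0.000476 in the same groups. A share of a library cannot tell more mitochondrial RNA per cell from less nuclear-encoded RNA per cell. The same share is commonly read as a measure of RNA quality, whose part in the difference was not tested.

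Gene by gene, 26 of the 37 had enough counts to be tested among 13326 genes: all 13 mRNAs, both rRNAs and 11 tRNAs. Of these tRNAs, mt-Ta passed the filter on low counts only through the knockout libraries, and mt-Th and mt-Ts2 only through the rescue libraries. In knockout against empty vector, 17 of the 26 rose, 7 mRNAs, 2 rRNAs and 8 tRNAs, at an edgeR adjusted p under 0.05, against a background of 29.5% of all tested genes called higher and 60.6% called in either direction. By edgeR and by DESeq2, 0 of the 26 fell, also at an unadjusted p under 0.05, where 31.1% of all tested genes fell by edgeR. The median log2 change of the 26 was 1.35, and that of all tested genes -0.02. The same 17 genes had every knockout library above every empty-vector library, which held for 30.8% of all tested genes, and 0 lay below in every library, which held for 32.8%. In rescue against knockout, 18 of the 26 fell, 9 mRNAs, 2 rRNAs and 7 tRNAs, against a background of 27.3%, and 2 tRNAs rose, against 29.5% (56.8% in either direction). All rescue libraries lay below all knockout libraries in 17 genes and above them in 3, where 30.7% and 34.6% of all tested genes did. The median was -1.17, and 0.03 over all tested genes. These comparisons share the knockout libraries, so they are not independent of each other. In rescue against empty vector, 2 mRNAs fell (background 25.1%) and 6 tRNAs rose (background 22.4%), with a median of 0.27 beside -0.02 over all tested genes (47.5% called in either direction). Rescue libraries all lay above in 9 genes and below in 2, where 26.5% and 28.6% of all tested genes did.

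**Figure D2:**
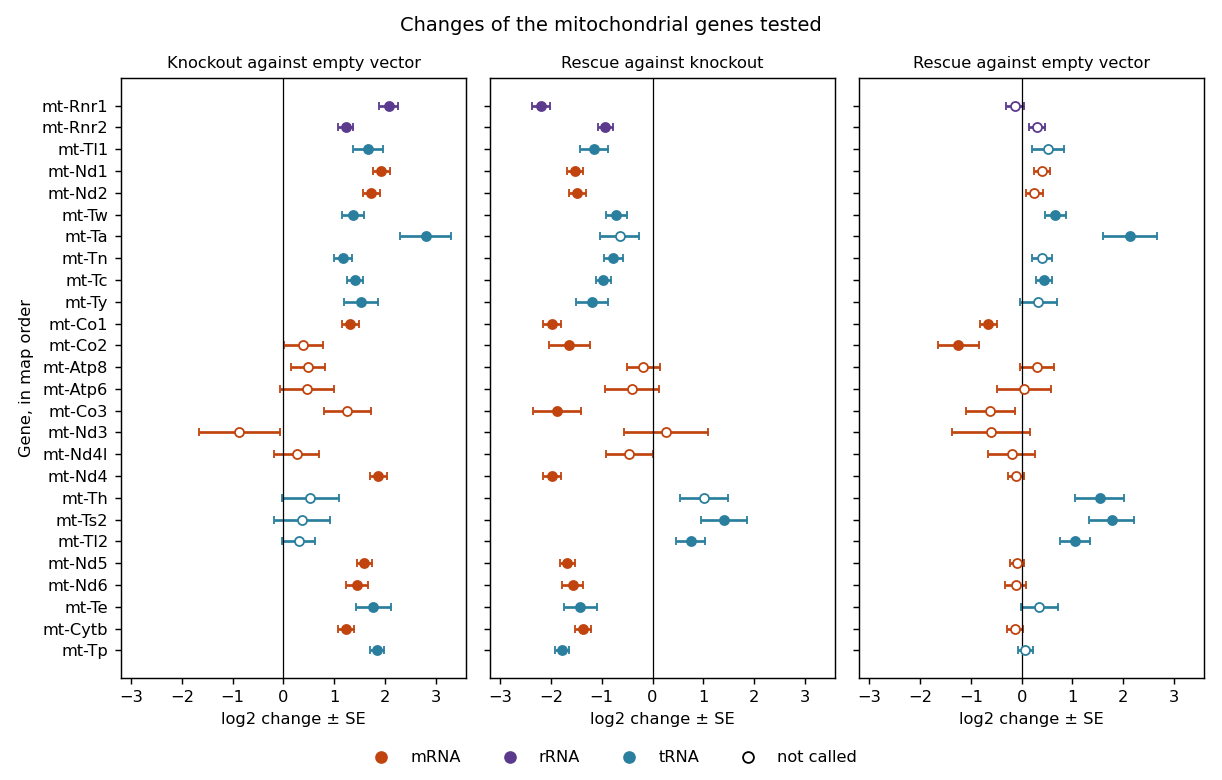
The log2 change (edgeR, x axis) with its SE for the 26 mitochondrial genes tested, in map order from top to bottom, in 3 comparisons; filled points passed an adjusted p under 0.05. In knockout against empty vector the filled points run from 1.17 (mt-Tn) to 2.80 (mt-Ta), and in rescue against knockout mt-Ts2 and mt-Tl2 alone are filled to the right of 0.

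The complex I subunits mt-Nd1, mt-Nd2, mt-Nd4 and mt-Nd5, which lie in the membrane arm of the enzyme, were higher in knockout in every library. mt-Nd1 (MT:2751-3707, plus strand, mm10) stood at 8317, 7350 and 6046 CPM in knockout, against 2131, 1412 and 2153 CPM in empty vector. The groups were far apart, and it rose by 1.93 ± 0.17 log2 units (SE, edgeR adjusted p = 8.3e-07), the largest change among the mRNAs called. mt-Nd2 (MT:3914-4951) had 11250, 10300 and 8363 CPM in knockout, against 3250, 2246 and 3536 CPM in empty vector, and rose by 1.73 ± 0.17 (edgeR adjusted p = 2.9e-06). mt-Nd4 (MT:10167-11544) had 7776, 7076 and 5535 CPM in knockout, against 2038, 1398 and 2149 CPM in empty vector, and rose by 1.87 ± 0.17 (edgeR adjusted p = 1.5e-06). mt-Nd5 (MT:11742-13565) had 9501, 8937 and 7052 CPM in knockout, against 3027, 2192 and 3252 CPM in empty vector, and rose by 1.59 ± 0.15 (edgeR adjusted p = 3.5e-07). In each of these genes the lowest knockout library was replicate 3 and the lowest empty-vector library replicate 2, as for the whole mitochondrial share.

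In rescue the same 4 genes fell against knockout, and none was called against empty vector with the main settings. mt-Nd1 had 2671, 2563 and 2272 CPM in rescue and fell by 1.53 on the log2 scale against knockout (SE 0.16, edgeR adjusted p = 6.7e-06). It lay above every empty-vector library, with a log2 change of 0.40 ± 0.16 that did not pass (edgeR adjusted p = 0.06), although it did under several alternatives, the smallest with an adjusted p = 0.033 without empty-vector replicate 3. mt-Nd2 had 3930, 3719 and 3078 CPM in rescue and fell by 1.48 against knockout (SE 0.17, edgeR adjusted p = 1.2e-05). mt-Nd4 had 1819, 1761 and 1578 CPM and mt-Nd5 had 2898, 2630 and 2427 CPM in rescue. Against knockout, mt-Nd4 fell by 1.98 (SE 0.17, edgeR adjusted p = 1e-06) and mt-Nd5 fell by 1.68 (SE 0.15, edgeR adjusted p = 2.3e-07). Rescue libraries overlapped empty-vector libraries in mt-Nd2, mt-Nd4 and mt-Nd5, and mt-Nd4 was called between them without empty-vector replicate 2 (-0.29, edgeR adjusted p = 0.045).

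mt-Nd6, another complex I subunit and the sole mRNA on the minus strand (MT:13552-14070), had 2271, 1995 and 1667 CPM in knockout, against 740.5, 527 and 895 CPM in empty vector. It rose by 1.45 ± 0.21 (SE, edgeR adjusted p = 0.0005), with no overlap of the groups. In rescue it had 732, 692 and 569 CPM and fell by 1.57 against knockout (SE 0.21, edgeR adjusted p = 0.00036). Its ratio to mt-Nd5, the neighbour on the other strand, was 0.250 ± 0.0144 in rescue, 0.233 ± 0.00846 in knockout and 0.254 ± 0.0189 in empty vector (SD, n = 3 each). The precursor of the plus strand runs antisense through mt-Nd6, and no source used here says whether counting was by strand, so sense and antisense reads cannot be told apart.

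mt-Cytb, the cytochrome b of complex III (MT:14145-15288), had 12860, 11990 and 9523 CPM in knockout, against 5521, 3595 and 5482 CPM in empty vector. It rose by 1.24 ± 0.16 (SE, edgeR adjusted p = 2e-05). Rescue libraries had 4778, 4566 and 3973 CPM, and mt-Cytb fell by 1.37 against knockout (SE 0.16, edgeR adjusted p = 9e-06). Rescue and empty vector overlapped, at a log2 change of -0.13 ± 0.16 (edgeR adjusted p = 0.53). Without empty-vector replicate 2 the change was -0.31 and passed (edgeR adjusted p = 0.027).

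mt-Co1, the catalytic core of complex IV (MT:5328-6872), was the most abundant mitochondrial mRNA per length, at 4494 ± 257, 17890 ± 3670 and 7079 ± 1606 FPKM in rescue, knockout and empty vector (SD, n = 3 each). It had 32320, 29140 and 21430 CPM in knockout, against 12650, 8253 and 12250 CPM in empty vector, and rose by 1.32 ± 0.17 (SE, edgeR adjusted p = 9.9e-06). Rescue libraries had 7279, 7161 and 6534 CPM, below every other library. mt-Co1 fell by 1.98 against knockout (SE 0.17, edgeR adjusted p = 2.2e-07) and by 0.66 against empty vector (SE 0.17, edgeR adjusted p = 0.0048). The fall against empty vector did not pass without empty-vector replicate 1 (-0.53, adjusted p = 0.12) or with no filter on low counts (adjusted p = 0.053).

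**Figure D3:**
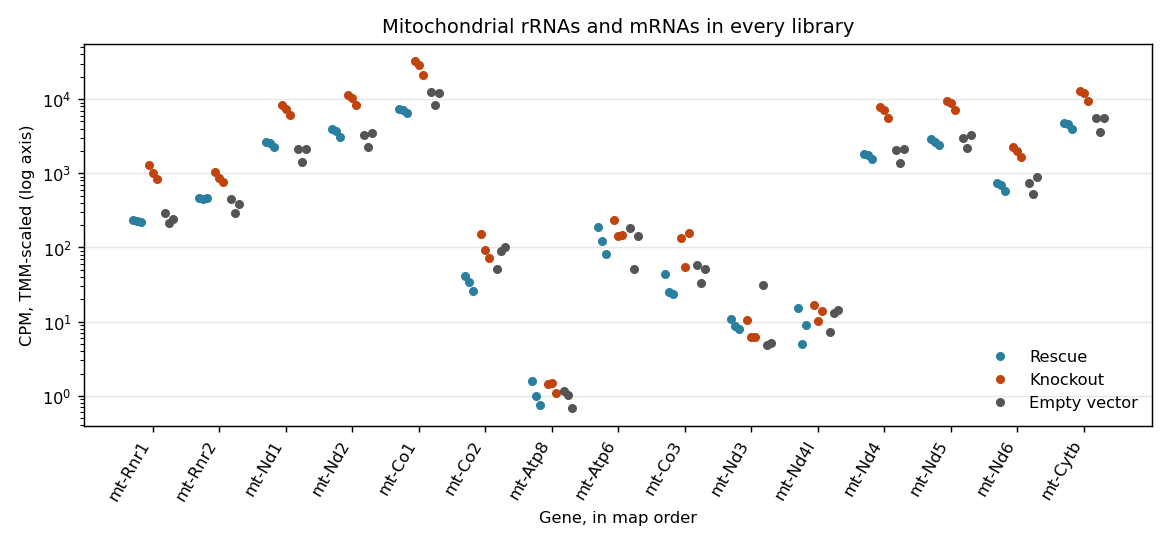
CPM (TMM-scaled counts, log axis) of the 2 rRNAs and 13 mRNAs in map order, with a point for each of 3 rescue, 3 knockout and 3 empty-vector libraries. Knockout points stand clear above the others in 9 genes, while the 6 genes from mt-Co2 to mt-Nd4l lie lower and their groups mix in knockout against empty vector.

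The other 6 mRNAs, which run in a row from mt-Co2 to mt-Nd4l, were of low level and none was called in knockout against empty vector by edgeR. Their median level in knockout was 96.4 FPKM, with a range of 6.61 to 257 FPKM, while the other 7 mRNAs ranged from 3811 to 17890 FPKM. Within groups, their CPM varied by a coefficient of variation of 16.1% to 110% (median 32.7%), against 5.73% to 25.6% (median 15.3%) in the other 7. This stretch has near-identical copies in the nuclear genome. Of the 13 mRNAs, 7 matched an annotated nuclear transcript at 99% identity or more over at least 100 bases, and all 7 copies lie on chromosome 1 between 24611535 and 24616197 on the minus strand (mm10, as the deposited table gives it). The copies of mt-Co2 (Gm28661), mt-Atp6 (Gm10925), mt-Co3 (Gm28437) and mt-Nd4l (Gm10222) match without a mismatch over at least 99% of the gene. That of mt-Nd4 (Gm28439) is identical over 63.6% of it, and that of mt-Co1 (Gm29216) covers 31.3%.

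The sequences below are from GENCODE M21 transcripts and show how little tells a mitochondrial gene from its copy. The first pair is the start of mt-Nd3 (MT:9459-9498, plus strand) and of its copy Gm28438 (chr1:24613080-24613119, minus strand), which differ over 345 aligned bases at 1 base, in capitals. The second set is a stretch of mt-Co1 (MT:6391-6430, plus strand), its copy Gm29216 (chr1:24616148-24616187, minus strand) and the more diverged copy Gm13340 (chr2:22588545-22588584, minus strand, 97.61% identical over the whole gene). Capitals there mark the base by which each copy departs from mt-Co1 and, in mt-Co1, the base at which Gm29216 departs.
mt-Nd3: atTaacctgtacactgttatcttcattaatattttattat
Gm28438: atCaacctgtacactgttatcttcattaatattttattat
mt-Co1: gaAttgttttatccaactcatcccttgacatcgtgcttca
Gm29216: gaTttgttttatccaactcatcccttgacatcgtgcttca
Gm13340: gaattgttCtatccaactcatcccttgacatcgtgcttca

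Reads from the copied stretch could not be assigned with certainty, and the table holds counts for the copies as well. Of the counts that a gene and its copy had together, the copy held 29.8% to 46.6% for mt-Co2 over the 9 libraries, 31.2% to 51.7% for mt-Atp6, 25.1% to 65.4% for mt-Co3, 16.8% to 66.8% for mt-Nd3 and 19.1% to 40.4% for mt-Nd4l. For the partly copied genes the copy held far less, 0.0981% to 0.931% for mt-Co1 and 0.351% to 1.09% for mt-Nd4. No source used here says how reads with several matches were counted. The 9 nuclear copies that the share was also computed with, the 7 above and 2 on chromosome 2, held 0.0188% ± 0.00531 of rescue, 0.0403% ± 0.00943 of knockout and 0.0271% ± 0.0107 of empty-vector counts (SD, n = 3 each).

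**Figure D4:**
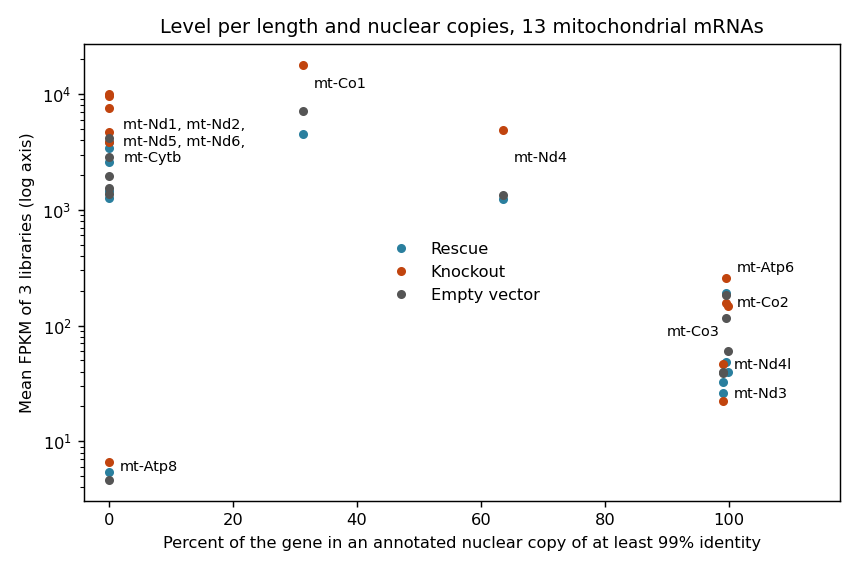
Mean FPKM of 3 libraries (log axis) against the percent of each of the 13 mRNAs that lies in an annotated nuclear copy of at least 99% identity, with a point per group. The 5 genes covered by at least 99% lie at 257 FPKM or less, and mt-Atp8, which has no annotated copy of its own, lies lowest.

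Among these 6 genes, mt-Co2, which carries the site of electron entry from cytochrome c into complex IV (MT:7013-7696), had 40.7, 34.5 and 25.7 CPM in rescue, 153, 93.1 and 72.9 CPM in knockout and 51.2, 90.5 and 102 CPM in empty vector. Rescue lay below every other library. mt-Co2 fell by 1.64 against knockout (SE 0.40, edgeR adjusted p = 0.012) and by 1.25 against empty vector (SE 0.40, edgeR adjusted p = 0.041). The second call ended when counts of the copy were added (-1.24 ± 0.43, edgeR adjusted p = 0.056) and in 8 other settings. mt-Co3, a further core subunit of complex IV (MT:8607-9390), had 44.1, 25.2 and 23.9 CPM in rescue, 132.5, 54.0 and 158 CPM in knockout and 59.0, 33.6 and 52.0 CPM in empty vector. It fell in rescue against knockout by 1.88 (SE 0.48, edgeR adjusted p = 0.015), a call lost without rescue replicate 2 (adjusted p = 0.056) or 3 (adjusted p = 0.055). In knockout against empty vector its log2 change of 1.26 ± 0.46 did not pass (edgeR adjusted p = 0.054), while it passed with DESeq2 (adjusted p = 0.013) and, in edgeR, without knockout replicate 2 (1.58, adjusted p = 0.012).

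The ATP synthase subunits mt-Atp6 (MT:7927-8607) and mt-Atp8 (MT:7766-7969) share 43 bases of the same strand, so a read there belongs to both genes. The overlap is shown in capitals, with 6 bases of each gene alone to either side (MT:7921-7975, plus strand), and below it that of mt-Nd4l and mt-Nd4, which share 7 bases (MT:10157-10183).
mt-Atp8 and mt-Atp6: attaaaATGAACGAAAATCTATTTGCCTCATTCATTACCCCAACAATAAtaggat
mt-Nd4l and mt-Nd4: acctactacaATGCTAAaaattattct

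mt-Atp6 had 189, 124 and 80.6 CPM in rescue, 236, 142 and 148 CPM in knockout and 185, 51.4 and 144 CPM in empty vector, and all groups overlapped. mt-Atp8 was near the detection limit, at 0.755 to 1.60 CPM in rescue, 1.10 to 1.49 in knockout and 0.682 to 1.15 in empty vector. No copy of mt-Atp8 is annotated, but the annotated copies of its neighbours mt-Co2 and mt-Atp6 lie 233 bases apart, exactly as the copied parts do on the mitochondrial chromosome. mt-Nd4l (MT:9877-10173), a small complex I subunit, had 15.3, 4.98 and 9.06 CPM in rescue, 17.04, 10.1 and 14.1 CPM in knockout and 7.32, 13.1 and 14.5 CPM in empty vector. mt-Nd3 (MT:9459-9806), also of complex I, had 10.8, 8.82 and 7.86 CPM in rescue, 10.6, 6.28 and 6.28 CPM in knockout and 31.3, 4.82 and 5.22 CPM in empty vector. Empty-vector replicate 1 was the high library in mt-Nd3, and without it both comparisons with empty vector turned and passed. The log2 change of knockout against empty vector was then 0.61 in place of -0.87 (edgeR adjusted p = 0.018), and that of rescue against empty vector 0.90 in place of -0.60 (edgeR adjusted p = 0.0013). With all libraries, none of these 4 genes passed in any comparison on the CPM scale (edgeR adjusted p of 0.23 to 0.95).

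The rRNAs rose in knockout by unequal amounts. mt-Rnr1, of the small ribosomal subunit (MT:70-1024), had 1312, 995 and 841 CPM in knockout, against 295, 212 and 242 CPM in empty vector, and rose by 2.07 ± 0.18 (SE, edgeR adjusted p = 1.1e-05). mt-Rnr2, of the large subunit (MT:1094-2675), had 1026, 874 and 759 CPM in knockout, against 449, 295 and 388 CPM in empty vector, and rose by 1.23 ± 0.15 (edgeR adjusted p = 5.6e-05). Neither gene overlapped between these groups, and neither was called in rescue against empty vector with the main settings, where mt-Rnr2 gave 0.30 ± 0.15 (edgeR adjusted p = 0.13). mt-Rnr2 passed there with no filter on low counts (0.29, edgeR adjusted p = 0.01). In rescue, mt-Rnr1 had 232, 231 and 223 CPM and mt-Rnr2 had 472, 452 and 471 CPM. They fell against knockout by 2.20 (SE 0.18, edgeR adjusted p = 9e-06) and by 0.93 (SE 0.15, edgeR adjusted p = 0.00043). The ratio of mt-Rnr1 to mt-Rnr2 counts was 0.491, 0.511 and 0.473 in rescue, 1.28, 1.14 and 1.11 in knockout and 0.657, 0.717 and 0.623 in empty vector. The 3 groups did not overlap in this ratio, and each pair had an exact permutation p = 0.1, the smallest possible (0.131 adjusted over 21 tests of 7 ratios). Both rRNAs lie on 1 strand, parted by mt-Tv, and both reached a poly(A)-selected library to an unknown extent.

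Of the 22 tRNAs, 11 had enough counts to be tested, and the other 11 had at most 12 counts in any library. mt-Tf had 0 counts throughout. In knockout against empty vector 8 of 11 rose, where 29.5% of all tested genes did: mt-Tl1, mt-Tw, mt-Ta, mt-Tn, mt-Tc, mt-Ty, mt-Te and mt-Tp. The rises were of 1.17 to 2.80 log2 units (edgeR adjusted p of 1.1e-08 to 0.0012). The 2.80 was that of mt-Ta, on few counts, and the next largest was 1.85 (mt-Tp). All of these tRNAs but mt-Ta fell in rescue against knockout, where 27.3% of all tested genes did. They fell by 0.71 to 1.78 on the log2 scale, with mt-Tw called although its libraries overlapped. mt-Tp, the proline tRNA on the minus strand (MT:15356-15422), was the most counted, at 10.0, 11.3 and 10.0 CPM in rescue, 42.2, 33.7 and 31.8 CPM in knockout and 12.3, 8.17 and 9.07 CPM in empty vector. It rose by 1.85 ± 0.14 in knockout against empty vector (SE, edgeR adjusted p = 1.1e-08) and fell by 1.78 in rescue against knockout (SE 0.14, edgeR adjusted p = 1.9e-08), and rescue and empty vector overlapped. As for mt-Nd6, sense and antisense reads of mt-Tp and of mt-Te, also on the minus strand, cannot be told apart. mt-Te was called in rescue against empty vector without empty-vector replicate 3 alone (0.88, edgeR adjusted p = 0.037). mt-Tl1, the leucine tRNA between mt-Rnr2 and mt-Nd1 (MT:2676-2750), had 10.6, 6.13 and 7.49 CPM in rescue, 21.7, 20.4 and 13.4 CPM in knockout and 7.32, 3.79 and 5.70 CPM in empty vector. It rose by 1.67 ± 0.29 in knockout against empty vector (edgeR adjusted p = 0.0011).

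The alanine tRNA mt-Ta had the largest fold of any mitochondrial gene tested, on few counts: 22, 9 and 6 in rescue, 19, 10 and 18 in knockout and 2, 2 and 4 in empty vector. It was higher than in empty vector by 2.80 ± 0.50 in knockout (SE, edgeR adjusted p = 7.6e-05) and by 2.14 ± 0.53 in rescue (edgeR adjusted p = 0.0024), and rescue and knockout overlapped. With rescue and empty-vector libraries alone, mt-Ta did not pass the filter on low counts and was not tested. Being high in knockout was thus in part a condition of its being tested. mt-Ta lies on the minus strand in a run of 4 tested tRNAs with mt-Tn, mt-Tc and mt-Ty (5018 to 5326 on MT). mt-Tn rose by 1.17 ± 0.18, mt-Tc by 1.41 ± 0.16 and mt-Ty by 1.53 ± 0.33 in knockout against empty vector. These counts carry the same doubt on strand as those of mt-Nd6.

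The tRNAs mt-Th, mt-Ts2 and mt-Tl2, which sit as a run between mt-Nd4 and mt-Nd5 on the plus strand, went another way from the rest in rescue. The histidine tRNA mt-Th had 44, 16 and 14 counts in rescue, 8, 9 and 12 in knockout and 2, 4 and 19 in empty vector. The serine tRNA mt-Ts2 had 35, 20 and 20 counts in rescue, 8, 6 and 9 in knockout and 1, 7 and 14 in empty vector. The leucine tRNA mt-Tl2 had 174, 90 and 62 counts in rescue, 43, 42 and 70 in knockout and 26, 45 and 84 in empty vector. On the CPM scale every rescue library lay above every knockout and every empty-vector library in all 3, as 34.6% and 26.5% of all tested genes did in these comparisons. Against empty vector, rescue was higher by 1.54 ± 0.48 in mt-Th, 1.77 ± 0.44 in mt-Ts2 and 1.05 ± 0.29 in mt-Tl2 (SE), with edgeR adjusted p-values of 0.013, 0.0029 and 0.0087 in that order of genes. With knockout and empty-vector libraries alone, mt-Th and mt-Ts2 did not pass the filter on low counts. Being high in rescue was thus in part a condition of their being tested. Against knockout, mt-Ts2 rose by 1.41 ± 0.45 (edgeR adjusted p = 0.011) and mt-Tl2 by 0.75 ± 0.29 (edgeR adjusted p = 0.041), while mt-Th, at 1.02 ± 0.47, did not pass (edgeR adjusted p = 0.075), although it passed in 5 settings (adjusted p of 0.022 to 0.036). The mt-Ts2 call against knockout was lost without knockout replicate 3 (adjusted p = 0.064), and that of mt-Tl2 in 6 settings, with an adjusted p of up to 0.17 without rescue replicate 1. The mt-Th call against empty vector was lost without rescue replicate 1 (adjusted p = 0.11). Without empty-vector replicate 3, mt-Th was also called in knockout against empty vector (1.79, edgeR adjusted p = 0.026), at 0.53 with all libraries.

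Set against their upstream neighbour mt-Nd4, the 3 tRNAs together gave 0.00496, 0.00392 and 0.00383 counts per mt-Nd4 count in rescue, 0.000482, 0.000665 and 0.000693 in knockout and 0.000632, 0.00258 and 0.00218 in empty vector. Rescue lay above all other libraries, with an exact permutation p = 0.1 against either group (0.131 adjusted over the same 21 tests), and knockout and empty vector overlapped. In rescue against knockout mt-Nd4 itself fell by 1.98 on the log2 scale, and the ratio carries that fall too. The adjustment does not cover how the tRNAs were picked, so these p-values are no test of their rise. These 3 tRNAs were singled out after their values were seen. Their DNA sequences (mt-Th MT:11546-11612, mt-Ts2 MT:11613-11671 and mt-Tl2 MT:11671-11741, plus strand) are shown with that of mt-Tp (MT:15356-15422, minus strand), which fell in rescue against knockout, and capitals mark the anticodon.
mt-Th: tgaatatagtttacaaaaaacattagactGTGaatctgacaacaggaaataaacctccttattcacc
mt-Ts2: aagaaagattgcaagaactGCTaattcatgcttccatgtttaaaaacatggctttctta
mt-Tl2: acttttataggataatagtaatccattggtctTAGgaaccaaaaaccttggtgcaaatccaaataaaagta
mt-Tp: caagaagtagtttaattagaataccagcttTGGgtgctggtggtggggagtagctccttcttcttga

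mt-Th and mt-Ts2 abut, and mt-Ts2 and mt-Tl2 share 1 base, so the run has no spacer and a read that crosses a border touches more than 1 gene. The other tRNAs that rose in rescue against empty vector were mt-Tw by 0.66 ± 0.21 (SE, edgeR adjusted p = 0.015), mt-Tc by 0.44 ± 0.16 (edgeR adjusted p = 0.034) and mt-Ta as above. The mt-Tc call was lost in 4 settings, with an adjusted p of up to 0.16, and that of mt-Tw without rescue replicate 1 (adjusted p = 0.1).

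Within the mitochondrial mRNA pool, the shares of mt-Co1, mt-Nd1, mt-Nd2, mt-Nd4 and mt-Cytb did not overlap between any pair of groups, while mt-Nd6 and mt-Co3 overlapped in every pair and mt-Nd5 overlapped in rescue against knockout. With edgeR on the scale of the mitochondrial mRNA total, mt-Co1, mt-Nd2, mt-Nd4 and mt-Cytb were not called in any comparison (adjusted p of 0.07 to 0.84). DESeq2 on that scale called mt-Nd4 higher in knockout against empty vector, where 232 of 13326 tested genes were called higher. It called mt-Cytb higher in rescue against knockout, where 12116 genes were called higher. In rescue against empty vector it called mt-Nd2 higher and mt-Co1 lower, with 1193 genes called higher and 410 lower. The edgeR fit drew its estimate of spread partly from all tested genes. The SE of these 4 genes was 0.20 to 0.21 throughout, so a missing call does not measure their own spread in share. mt-Co1 held 29.8%, 30.8% and 31.8% of mitochondrial mRNA counts in rescue libraries, 38.1%, 37.8% and 35.7% in knockout libraries and 42.6%, 41.7% and 40.8% in empty-vector libraries. The groups were in a clear order with no overlap. mt-Nd1 held 10.94%, 11.01% and 11.04% in rescue, 9.80%, 9.53% and 10.1% in knockout and 7.18%, 7.12% and 7.17% in empty vector, again without overlap, and mt-Nd2 averaged 15.7% ± 0.627, 13.5% ± 0.365 and 11.4% ± 0.415 in the same order of groups (SD, n = 3 each). mt-Nd4 held 7.45%, 7.56% and 7.67% in rescue, 9.17%, 9.18% and 9.22% in knockout and 6.86%, 7.06% and 7.16% in empty vector, so that knockout was highest. mt-Cytb held 19.5% ± 0.165 in rescue, 15.5% ± 0.356 in knockout and 18.3% ± 0.235 in empty vector, so that knockout was lowest. mt-Nd5 averaged 11.7% ± 0.315, 11.5% ± 0.284 and 10.7% ± 0.449 in rescue, knockout and empty vector, and mt-Nd6 averaged 2.91% ± 0.126, 2.68% ± 0.0948 and 2.71% ± 0.247.

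**Figure D5:**
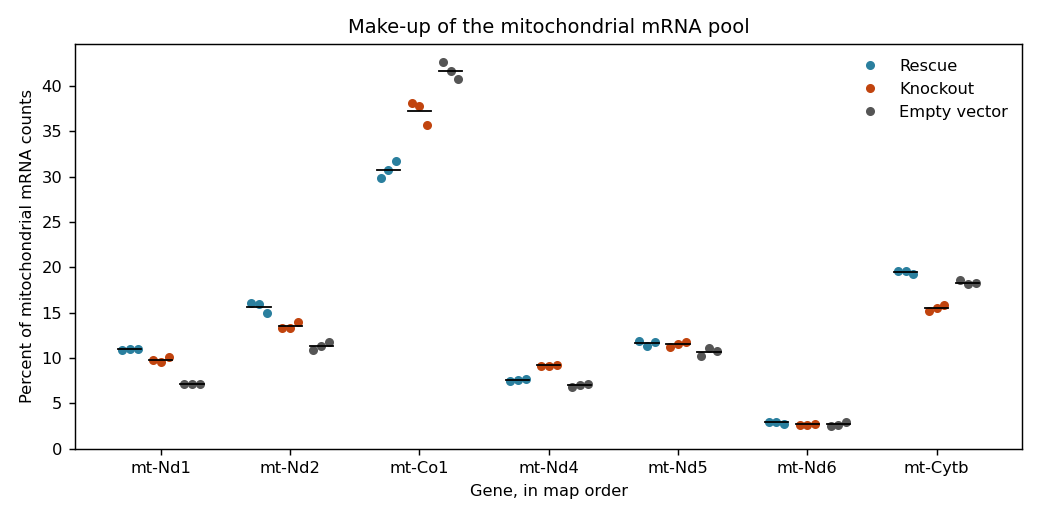
Percent of mitochondrial mRNA counts held by each of the 7 abundant mRNAs, with a point per library and a line at the mean of 3 libraries for rescue, knockout and empty vector. mt-Co1 runs from 29.8% in a rescue library to 42.6% in an empty-vector library, and mt-Nd1 runs in the opposite order of groups.

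Of the 7 abundant mRNAs, 4 had all knockout libraries above and 2 below all empty-vector libraries in this share, where 1.87% of all tested genes lay above and 87.6% below when set against the mitochondrial mRNA total. For rescue against knockout, 3 lay above and 2 below, where 92.3% and 2.07% of all tested genes did. For rescue against empty vector, 5 lay above and 1 below, where 19.3% and 6.18% of all tested genes did. The 7 mRNAs held 98.77% to 99.6% of mitochondrial mRNA counts over the libraries, so each is part of its own total. When the share of 1 falls, others must rise, and shares that move both ways are built into the measure. The figures for all tested genes mainly follow the change of that total (median log2 change -1.51 in knockout against empty vector). As ratios, mt-Nd1 to mt-Co1 counts averaged 0.358 ± 0.00962 in rescue, 0.264 ± 0.0160 in knockout and 0.172 ± 0.00374 in empty vector, and mt-Cytb to mt-Co1 averaged 0.634 ± 0.0244, 0.418 ± 0.0239 and 0.440 ± 0.00676 in the same groups (SD, n = 3 each). Each pair of groups had an exact permutation p = 0.1 (0.131 adjusted over the 21 tests) except mt-Cytb to mt-Co1 in knockout against empty vector (exact p = 0.3, 0.315 adjusted). The ratio of mt-Nd4 to mt-Nd1 was 0.681, 0.687 and 0.695 in rescue, 0.935, 0.963 and 0.916 in knockout and 0.957, 0.990 and 0.998 in empty vector. For this ratio knockout and empty vector overlapped (exact permutation p = 0.2, 0.247 adjusted). Rescue lay below both groups (exact permutation p = 0.1 against either, 0.131 adjusted).

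When the mitochondrial mRNA total was taken as the library size in edgeR, mt-Nd1 alone of the 13 mRNAs was higher in knockout than in empty vector, by 0.45 ± 0.21 (SE, edgeR adjusted p = 0.033, background 1.82%), and 5 were lower (background 88.8%). The 5 were mt-Nd3 at -2.25 ± 0.36, mt-Nd4l at -1.27 ± 0.27, mt-Co2 at -1.19 ± 0.24, mt-Atp8 at -0.98 ± 0.43 and mt-Atp6 at -0.94 ± 0.23, all among the 6 low mRNAs. They lie in the copied stretch, where reads could not be assigned with certainty. Their changes on this scale, in every comparison, may therefore not follow their transcripts. mt-Atp8 had 16 to 26 counts in knockout and empty-vector libraries. In mt-Co2 and mt-Atp6 the shares of knockout and empty-vector libraries overlapped. mt-Nd3 held 0.105%, 0.0243% and 0.0174% of mitochondrial mRNA counts in empty vector. Its change ran from -2.66 to -0.98 over the alternative settings (adjusted p of up to 0.038). The mt-Atp8 call was lost without knockout replicate 1 or without empty-vector replicate 1 or 2 (adjusted p of 0.066 to 0.08). The median of all tested genes on this scale was -1.51, and 90.7% were called in either direction. Since spread was estimated partly from all these genes, p-values on this scale do not measure the spread of each mRNA alone. In knockout against empty vector the SE of mt-Nd3 was 0.80 on the CPM scale, and that of mt-Atp6 0.53. In rescue against knockout, mt-Nd3, mt-Atp8, mt-Atp6 and mt-Nd4l were higher by 1.18 to 1.95, with mt-Nd3 no longer called without knockout replicate 3 (adjusted p = 0.06) (background 91.4%, and 93.2% in either direction), and 0 of 13 were lower by edgeR and DESeq2, also at an unadjusted p under 0.05 (background 1.82%). In rescue against empty vector, mt-Nd1 was higher by 0.62 ± 0.21 (SE, edgeR adjusted p = 0.035, background 7.2%) and mt-Co2 lower by 1.13 on the log2 scale (SE 0.24, edgeR adjusted p = 0.00019, background 2.93%). The mt-Nd1 call of knockout against empty vector was lost without knockout replicate 1 or 2, rescue replicate 2 or empty-vector replicate 1 (adjusted p of up to 0.08). That of rescue against empty vector was lost without knockout replicate 2, any rescue replicate, or empty-vector replicate 1 or 3 (adjusted p of up to 0.16). mt-Rnr1 rose on this scale in knockout against empty vector by 0.57 ± 0.22 (edgeR adjusted p = 0.013), and mt-Rnr2, at -0.25 ± 0.22, did not pass (edgeR adjusted p = 0.27).

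Gene ends on the mitochondrial chromosome are tight, and 3 of the 13 mRNAs, mt-Co3, mt-Nd4 and mt-Cytb, stop in the annotation at the first base of a stop codon, which the poly(A) tail completes. Their last 15 bases are shown with that of mt-Co1, which has a full stop codon, in capitals (MT:9376-9390, MT:11530-11544, MT:15274-15288 and MT:6858-6872, plus strand).
mt-Co3: attgatgaggatctT
mt-Nd4: caggcctgacaataT
mt-Cytb: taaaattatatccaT
mt-Co1: gtaaaagtaaaaTAA

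Nuclear genes that copy, transcribe, cut and stabilise mitochondrial nucleic acids did not move as a block with the mitochondrial genes. Of 39 such genes, all tested, 5 rose and 20 fell in knockout against empty vector (median log2 change -0.20, all genes -0.02), and 16 rose and 9 fell in rescue against knockout (median 0.13, all genes 0.03), where 29.5% of all tested genes rose and 27.3% fell. In rescue against empty vector 2 rose and 11 fell (median -0.08), where 22.4% of all tested genes rose and 25.1% fell. In knockout against empty vector 29.5% of all tested genes rose and 31.1% fell. Polrmt, the mitochondrial RNA polymerase, had a mean of 92.4 CPM in rescue, 143 in knockout and 109 in empty vector. It rose by 0.40 ± 0.06 in knockout against empty vector (SE, edgeR adjusted p = 2.6e-05) and fell by 0.63 in rescue against knockout (edgeR adjusted p = 1e-07). Polrmt also fell in rescue against empty vector, by 0.23 (edgeR adjusted p = 0.0065). Tfam, which packages mitochondrial DNA and activates its transcription, had 64.7, 51.5 and 56.3 CPM in rescue, knockout and empty vector, and gave -0.12 ± 0.07 in knockout against empty vector (edgeR adjusted p = 0.15). Rescue was higher in Tfam by 0.32 ± 0.07 against knockout (edgeR adjusted p = 0.00085) and by 0.20 ± 0.07 against empty vector (edgeR adjusted p = 0.029).

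Lrpprc, which stabilises mitochondrial mRNAs, had 177 CPM in rescue, 208 in knockout and 234 in empty vector, and fell in knockout against empty vector by 0.17 (SE 0.06, edgeR adjusted p = 0.027). In rescue, Lrpprc fell by 0.23 against knockout (edgeR adjusted p = 0.0043) and by 0.40 against empty vector (edgeR adjusted p = 3.9e-05). Its partner Slirp had 1.96, 2.13 and 1.62 CPM in the same groups, with 0.34 ± 0.27 in knockout against empty vector (edgeR adjusted p = 0.28). The smallest adjusted p of the list belonged to Pnpt1, an exoribonuclease of the mitochondrial RNA degradosome, at 55.8 CPM in rescue, 50.7 in knockout and 98.96 in empty vector. It fell in knockout against empty vector by 0.96 (SE 0.07, edgeR adjusted p = 7.2e-10) and in rescue against empty vector by 0.83 (edgeR adjusted p = 1.7e-08). Pde12, which removes poly(A) tails in mitochondria, fell by 0.56 (SE 0.06, edgeR adjusted p = 1.3e-07), and Elac2, which cuts the 3' ends of tRNAs, fell by 0.47 (SE 0.06, edgeR adjusted p = 1.3e-06), both in knockout against empty vector. Polg, the mitochondrial DNA polymerase, rose by 0.48 ± 0.07 there (edgeR adjusted p = 4.2e-06) and fell by 0.44 in rescue against knockout (edgeR adjusted p = 1.3e-05).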

How the data were processed

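RNA of 9 RENCA libraries, 3 per group by title, was poly(A)-selected per the labels' protocols, which describe directional and non-directional preparation without saying which was used. Tools listed per the submitters' processing notes are HISAT2, HISAT, TopHat2 and CASAVA, and the build is mm10; versions and roles are not given there. The deposited gene counts are unnormalized whole numbers, as the file headers and values show. The deposited FPKM of each library, named so per the file headers, served for levels per length. The authors' group means (a score with no stated scale), log2 fold changes and p-values in the same deposited table were not used. The design text counts fewer knockout replicates than the 3 that are labelled and were used.

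Counts were tested with edgeR 4.0.16 (R 4.3.3): filterByExpr kept 13326 genes, TMM scaling, robust quasi-likelihood fit to all 9 libraries with a mean per group, and Benjamini-Hochberg adjustment over all tested genes, called under 0.05. CPM values are TMM-scaled. SE was taken as log2 change over the root of F. A second fit took the summed counts of the 13 mitochondrial mRNAs as library size, with spread still estimated partly from all tested genes. Shares and ratios were compared by exact two-sided permutation (scipy 1.17.1). Transcripts of GENCODE M21, whose coordinates matched the table for all 37 genes, were searched for nuclear copies with blastn 2.17.0 (at least 90% identity over 100 bases, near-identical at 99%). DESeq2 1.42.0 and other scales, filters and library choices were tried as alternatives. The edgeR fit was tested on simulated data, but not with mitochondrial mRNA totals as library size.

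The members, lists and ratios were chosen with earlier results of these data known, and the summing of nuclear copies was added after the data were seen. All mRNAs, rRNAs and tested tRNAs were to be named, and, from the 39 nuclear genes, the 4 with the smallest adjusted p in knockout against empty vector with Lrpprc, Slirp, Polrmt and Tfam. Libraries of a group were not duplicates, with a chi-square over its degrees of freedom of 3.53 to 19.49 for each pair.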

Additional observations from a re-analysis of the deposited data

How the results depend on the processing

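All 17 calls of knockout against empty vector held in all 16 alternative settings. With 1 library left out, rescue against knockout gave 0 to 3 genes higher (2 with all libraries) and 17 to 18 lower, and rescue against empty vector gave 4 to 7 higher and 1 to 3 lower (2 with all libraries). Over all 13574 to 13913 genes then tested, rescue against knockout gave 3550 to 4413 higher and 3384 to 3870 lower. Rescue against empty vector gave 2486 to 3476 higher and 2792 to 3483 lower. Lower mitochondrial calls in rescue against empty vector were 0 with no filter on low counts and 1 with nuclear copies summed. Over all tested genes these 2 settings gave 3392 and 3342 lower. Relative to the mitochondrial mRNA total, DESeq2 gave 2 mRNAs higher in knockout and in rescue than in empty vector (1 each by edgeR). Of all 13326 tested genes, 232 and 1193 were higher there. DESeq2 gave 2 mRNAs lower in rescue than in empty vector (1 by edgeR), with 410 lower over all tested genes. In rescue against knockout it gave 5 mRNAs higher (4 by edgeR), with 12116 higher over all tested genes. Without mt-Co1, mt-Co2 and mt-Co3 in the mRNA total, 0 and 0 mRNAs were higher in knockout and in rescue than in empty vector. Over all tested genes 224 and 337 were. With that total, 2 mRNAs were lower in rescue than in empty vector, and 2 in rescue than in knockout (0 with the 3 genes in). Over all tested genes 853 and 274 were lower there. With 1 library left out, 0 to 1 were higher and 4 to 6 lower in knockout than in empty vector, 0 to 1 higher in rescue than in empty vector, and 3 to 4 higher and 0 to 1 lower in rescue than in knockout. Over all tested genes these fits gave 212 to 344 higher and 11551 to 12091 lower in knockout than in empty vector. Rescue against knockout gave 11996 to 12657 higher and 215 to 300 lower. Higher calls in rescue than in empty vector ran from 297 without empty-vector replicate 3 to 4130 without empty-vector replicate 2 (960 with all libraries).

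Libraries of the same number did not pair (r of -0.15 to 0.05). A replicate block gave 1 gene higher in rescue than in knockout, 9 higher (6 without the block, gaining mt-Rnr2, mt-Tl1 and mt-Nd1) and 1 lower in rescue than in empty vector, mt-Co3 called higher in knockout than in empty vector (1.21, edgeR adjusted p = 0.031), and 0 mRNAs higher relative to the mRNA total in either comparison with empty vector. Of all 13326 tested genes, the block gave 3822 higher in rescue than in knockout. Against empty vector, rescue had 2859 higher and 3232 lower. Relative to the mRNA total, 236 genes were higher in knockout and 767 in rescue than in empty vector.

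Directions that turned were all of log2 changes not called with the main settings, and mt-Nd3 was called after turning in both comparisons with empty vector. Over all alternative settings, knockout against empty vector ran from -1.29 to 0.61 for mt-Nd3, -0.19 to 1.04 for mt-Ts2 and -0.05 to 0.64 for mt-Tl2, each turned without empty-vector replicate 1. In rescue against knockout mt-Atp8 ran from -0.58 to 0.02 and gave 0.00 on library totals. In rescue against empty vector the ranges were -0.23 to 0.04 for mt-Rnr1, -0.20 to 0.59 for mt-Ty, -0.11 to 0.52 for mt-Atp8, -0.32 to 0.44 for mt-Atp6, -1.01 to 0.90 for mt-Nd3, -0.74 to 0.10 for mt-Nd4l, -0.29 to 0.00 for mt-Nd4, -0.25 to 0.02 for mt-Nd5, -0.30 to 0.07 for mt-Nd6, -0.11 to 0.88 for mt-Te and -0.03 to 0.29 for mt-Tp. Nuclear copies summed gave -0.14 for mt-Atp6 and 0.24 for mt-Nd3 there. The cause was not tested. With library totals alone as scale, the median of all genes moved to -0.17 in knockout against empty vector and 0.22 in rescue against knockout, and higher calls were 34.4% and 69.6% of calls (48.7% and 51.9% with TMM).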
